A study of Mus musculus with 3 samples.

Results

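The 10 genes described here are those of YAP (Yap1), TAZ (Wwtr1), the TEAD transcription factors (Tead1, Tead2, Tead3 and Tead4), the LATS kinases (Lats1 and Lats2) and the classic YAP and TAZ targets Ctgf and Cyr61, which newer name tables call Ccn2 and Ccn1. They were chosen by name for their part in stretch sensing, and all 10 have a row among the 39304 rows of the deposited table. The libraries came from 1 male wild type C57BL/6 mouse, 8 weeks old. Its kidney glomeruli were taken apart into single cells, each cell's RNA was copied to cDNA on a microfluidic Fluidigm C1 system, and qPCR of marker genes told the cells apart. The cDNA of 15 mesangial cells (contractile cells that hold the capillary loops) and of 15 endothelial cells (the lining of those loops) was combined and split into 3 aliquots, so there is a single group with no control or treated samples. Every SD below is over the 3 aliquots (n = 3) and measures library making and sequencing, not the variation between mice or cells.

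The Hippo pathway is a kinase cascade that holds back the co-activators YAP and TAZ. MST kinases activate LATS kinases, which phosphorylate YAP and TAZ so that 14-3-3 proteins keep them in the cytoplasm or they are degraded. When cells are spread, stretched or on a stiff matrix, YAP and TAZ enter the nucleus and switch on genes through TEAD proteins, which bind the DNA. Glomerular capillaries are under constant pressure, and their cells are widely studied for such mechanical responses. Transcript levels do not show where the YAP and TAZ proteins are or whether they are phosphorylated.

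TEAD proteins recognise the letters GGAATG, which read CATTCC on the other strand. The promoters shown here are the 250 bases before the RefSeq start (GRCm38.p6), 5′ to 3′ on the gene's strand, for the co-activators Yap1 and Wwtr1, for the target Cyr61 and for Axl, another gene of the target list. They were picked, with levels known, among promoters that hold these letters, so they bear on no relation between letters and level. Capitals mark each match.
Yap1, chr9:8004597-8004846, minus strand: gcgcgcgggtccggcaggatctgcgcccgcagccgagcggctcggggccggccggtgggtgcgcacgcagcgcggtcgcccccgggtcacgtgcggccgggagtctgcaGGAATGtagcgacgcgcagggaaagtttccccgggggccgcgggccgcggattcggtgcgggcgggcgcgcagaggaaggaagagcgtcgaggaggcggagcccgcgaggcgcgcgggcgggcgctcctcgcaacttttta
Wwtr1, chr3:57575911-57576160, minus strand: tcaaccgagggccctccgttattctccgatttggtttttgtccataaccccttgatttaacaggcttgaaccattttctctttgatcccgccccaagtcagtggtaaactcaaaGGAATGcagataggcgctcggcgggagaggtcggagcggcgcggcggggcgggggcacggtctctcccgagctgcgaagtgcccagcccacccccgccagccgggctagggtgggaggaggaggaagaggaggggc
Cyr61, chr3:145649986-145650235, minus strand: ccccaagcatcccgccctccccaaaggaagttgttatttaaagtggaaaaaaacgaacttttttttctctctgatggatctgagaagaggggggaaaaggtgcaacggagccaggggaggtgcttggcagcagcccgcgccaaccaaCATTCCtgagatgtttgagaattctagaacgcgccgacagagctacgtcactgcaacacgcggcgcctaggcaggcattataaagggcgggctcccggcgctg
Axl, chr7:25788734-25788983, minus strand: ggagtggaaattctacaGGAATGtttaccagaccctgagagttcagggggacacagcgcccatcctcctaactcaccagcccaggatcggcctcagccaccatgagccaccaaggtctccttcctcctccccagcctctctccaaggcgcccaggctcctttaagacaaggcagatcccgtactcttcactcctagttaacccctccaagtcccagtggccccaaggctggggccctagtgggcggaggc
The match begins 141 bases upstream of the start in Yap1, 136 in Wwtr1, 103 in Cyr61 and 233 in Axl. RefSeq promoters were matched for 7 of the 10 genes, and Yap1, Wwtr1, Tead3 and Cyr61 (4 genes) held a match in at least 1 of their starts, which was 6 of 11 starts. The windows of Wwtr1 starts 1 and 2 overlap and hold the same match, so starts of 1 gene are not independent. Tead1, Tead4 and Ctgf had no entry. In the target list of 22 genes 15 had an entry, and 6 of their 17 starts held a match. Over all genes 12.6% of 32851 such windows, 1 per start, held one. A match is a stretch of letters, not a measured binding site.

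Levels are given as deposited, in FPKM, a read density that divides out each gene's length and each library's total. A gene is called detected when it had at least 1 FPKM in every aliquot. By this limit 6 of the 10 genes were detected, 2 were between 0 and the limit and 2 were listed at 0 in each aliquot. Of all rows 71.7% were listed at 0 and 21.7% were detected, of the 21303 protein-coding rows 36.4% and of the 11142 genes above 0 in at least 1 aliquot 76.6%. The lowest of the detected genes was Lats1 with 11.3 FPKM. The highest undetected one was Cyr61 with a mean of 0.482 FPKM and 0.629 FPKM in its highest aliquot. At limits of 0.5 and 5 FPKM the count was also 6.

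Library totals recovered from the steps of the low values were 9141422 to 10976563 reads, and the 10 genes together took 12401, 13752 and 14590 reads in aliquots 1, 2 and 3. Markers of both pooled cell types were detected. The marker lists were chosen with earlier results of these data known, so their counts are no independent test of cell identity. For scale, 36.4% of all protein-coding rows and 76.6% of genes above 0 in at least 1 aliquot were detected. All 10 mesangial markers were detected (summed level 9048 to 9479 FPKM over the aliquots) and 10 of 12 endothelial markers (2628 to 2678 FPKM), with Cldn5 at 0. Podocyte markers, of a glomerular cell type not named in the pool, were detected for 7 of 10 genes (316 to 335 FPKM), and smooth muscle and renin cell markers for 6 of 7 (1593 to 1691 FPKM), with Cnn1 at 0. Of that last sum Myl9 alone gave 1420.3 to 1504 FPKM, and Acta2, the next highest, had a mean of 72.8 FPKM. Reads of 5 of the 34 marker genes tested differed between aliquots in the chi-square test described below, against 1.09% of all 9120 genes tested. These 5 were Gata3, Rgs5, Emcn, Cdh5 and Myl9, named after their values were seen. Tubule markers were at 0 for 6 of 6, and blood and immune markers for 7 of 8 (0 to 0.191 FPKM). The part of podocyte or smooth muscle RNA in the levels below was not tested. In this mixture fewer cells of a type and less RNA per cell cannot be told apart, nor can the mesangial or endothelial source of a transcript.

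**Figure D1:**
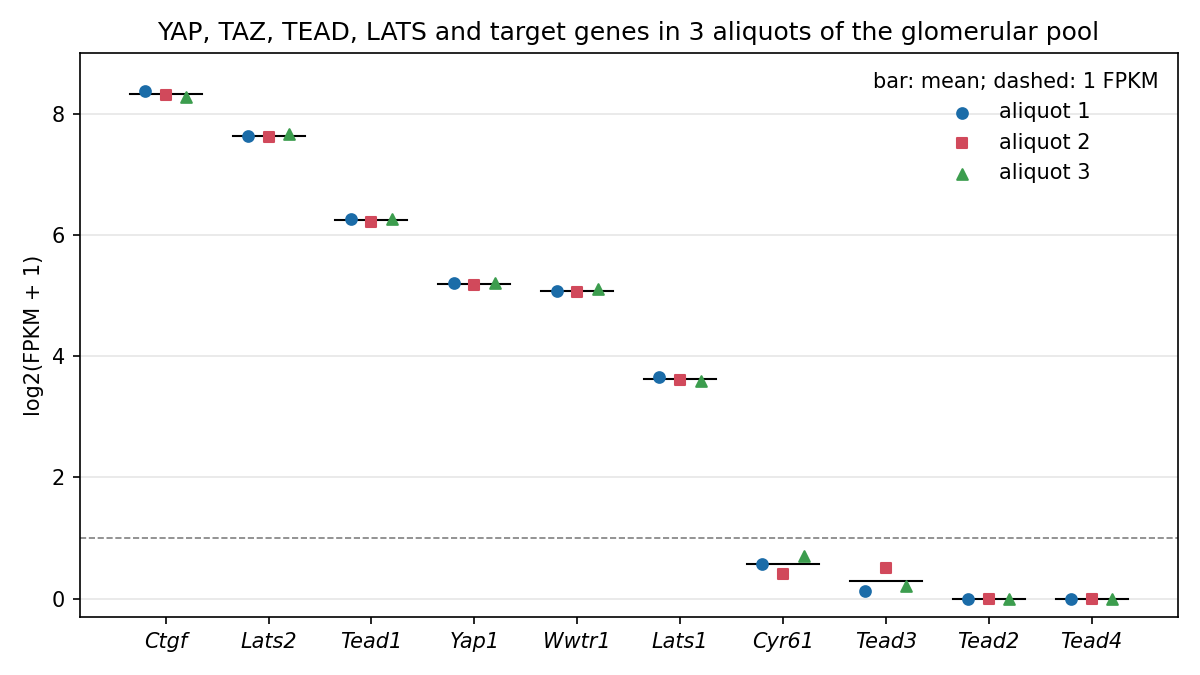
Level of each of the 10 genes as log2(FPKM + 1) in aliquots 1, 2 and 3 (points), with the mean as a bar and the limit of 1 FPKM as a dashed line. Ctgf lay highest with a mean of 318 FPKM, 6 genes stood above the line in every aliquot, and Tead2 and Tead4 were listed at 0.

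The co-activators were both present at similar deposited levels. Yap1 (ENSMUSG00000053110, chromosome 9, 7931999 to 8004596, minus strand, GRCm38), which encodes YAP, had 35.8, 35.1 and 35.8 FPKM in aliquots 1, 2 and 3, a mean of 35.6 ± 0.382 FPKM. Wwtr1 (ENSMUSG00000027803, chromosome 3, 57455649 to 57575910, minus strand), which encodes its relative TAZ, had 32.6, 32.1 and 33.6 FPKM, a mean of 32.8 ± 0.728 FPKM. The lowest Yap1 value was above the highest Wwtr1 value, so the ranges did not overlap, but the gap was small. Yap1 stood 1.09 ± 0.0173 times above Wwtr1 as the mean of the ratios within aliquots. This order turned with gene length: scaled to the longest annotated transcript of each gene, Wwtr1 had 32.2 FPKM and Yap1 13.8 FPKM. Wwtr1 had more reads in all, 4625 against 2230. The order of the co-activators per transcript thus depended on the length taken for Yap1, and these values do not show which of its 10 annotated transcripts were present.

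Of the 4 TEAD genes only Tead1 was detected. Tead1 (ENSMUSG00000055320, chromosome 7, 112679318 to 112906807, plus strand) had 76.1, 73.5 and 75.9 FPKM, a mean of 75.2 ± 1.45 FPKM, and was higher than either co-activator in every aliquot. Tead3 (ENSMUSG00000002249, chromosome 17, 28331671 to 28350817, minus strand) had 0.0976, 0.428 and 0.163 FPKM, from 2, 10 and 4 reads. Its 16 reads in all have an exact 95% Poisson interval of 9.15 to 25.98 reads, for counting error only, which is 0.134 to 0.380 FPKM around a pooled 0.234 FPKM. Tead2 (ENSMUSG00000030796, chromosome 7, 45215753 to 45233644, plus strand) and Tead4 (ENSMUSG00000030353, chromosome 6, 128224288 to 128300823, minus strand) were listed at 0 in each aliquot. In the annotation 0.272% of the exonic bases of Tead2 and 0% of those of Tead4 lie in exons of another gene, where reads cannot always be assigned to 1 gene. A listed 0 is not proof that a transcript was absent, and 54.6% of all protein-coding rows were listed at 0. Tead1 made up 99.7% ± 0.239 of the summed TEAD level, and 98.4% ± 1.22 when each gene was scaled to its longest transcript.

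The level of Tead1 rests on a short gene length. The deposited values imply 1234 bases, the smallest whole length that makes its reads whole, while the longest of its 15 annotated transcripts has 9964. Scaled to that transcript Tead1 had 9.31 FPKM, below Wwtr1 and Yap1 and beside Lats1 with 8.91 FPKM. If its length were 2 times the smallest, the scaled level would be 18.6 FPKM, above the 13.8 FPKM of Yap1. The position of Tead1 among the detected genes was thus not settled, whereas its distance from Tead3 (0.149 FPKM when scaled) was large under every length tried.

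**Figure D2:**
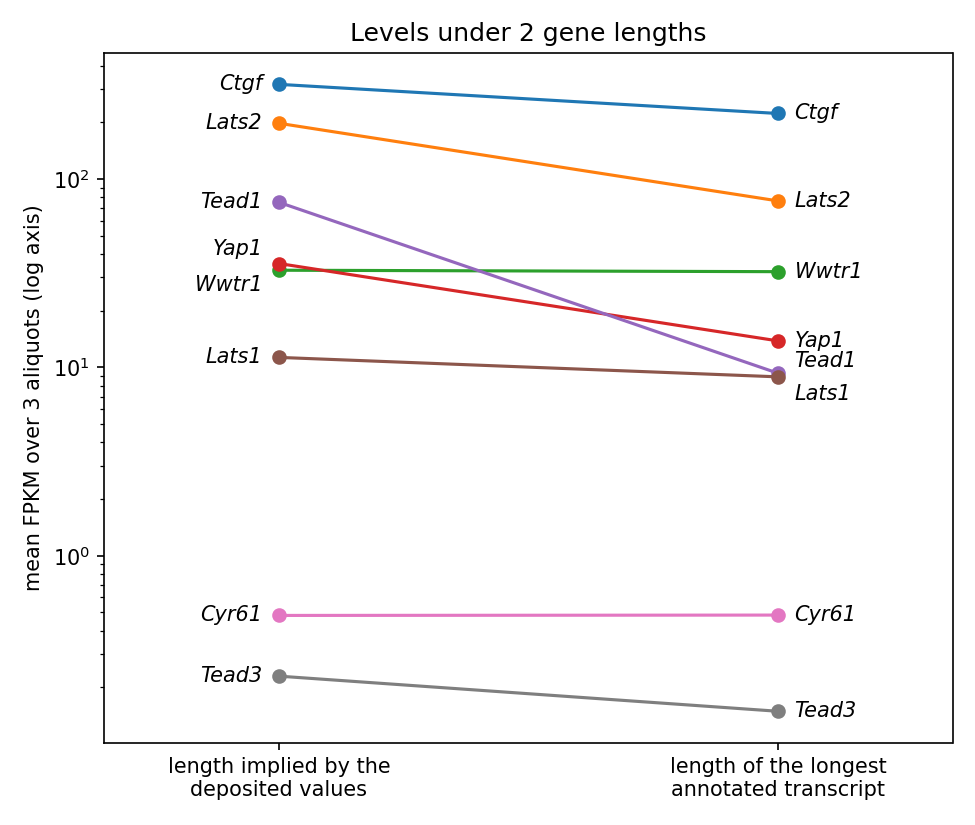
Mean FPKM of the 8 genes above 0 (log axis) with the gene length that the deposited values imply (left) and with the length of the longest annotated transcript (right), each line 1 gene. Ctgf and Lats2 stayed first and second, Tead1 fell from 75.2 to 9.31 FPKM, and Yap1 and Wwtr1 changed places.

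The LATS kinases, which phosphorylate YAP and TAZ, were unequal. Lats1 (ENSMUSG00000040021, chromosome 10, 7681214 to 7716460, plus strand) had 11.6, 11.2 and 11.04 FPKM, a mean of 11.3 ± 0.285 FPKM, near the median of 10.6 FPKM of genes above 0. Lats2 (ENSMUSG00000021959, chromosome 14, 57689662 to 57758388, minus strand), which is also known as a YAP target, had 198, 194 and 201 FPKM, a mean of 198 ± 3.21 FPKM. Lats2 was higher in each aliquot, and the ranges were far apart. Its level was 17.5 ± 0.605 times that of Lats1 as the mean of the ratios within aliquots. Scaled to the longest transcripts the order held, with 76.5 FPKM for Lats2 and 8.91 FPKM for Lats1. In the annotation 42.4% of the exonic bases of Lats2 are shared with the gene model Gm49361, for which no value was used here.

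The target genes Ctgf and Cyr61, members of the CCN family of secreted matricellular proteins, stood at opposite ends. Ctgf (ENSMUSG00000019997, chromosome 10, 24595442 to 24598683, plus strand), connective tissue growth factor, had 329, 316 and 309 FPKM, a mean of 318 ± 10.2 FPKM, and was number 289 of 11142 genes above 0. Cyr61 (ENSMUSG00000028195, chromosome 3, 145646976 to 145649981, minus strand), cysteine-rich angiogenic inducer, had 0.485, 0.331 and 0.629 FPKM, a mean of 0.482 ± 0.149 FPKM, and was number 9283. Cyr61 rests on 9, 7 and 14 reads and Ctgf on 5248, 5749 and 5917, so the gap is far wider than the counting error. The 30 reads of Cyr61 have an exact 95% Poisson interval of 20.2 to 42.8 reads, which is 0.327 to 0.691 FPKM around a pooled 0.484 FPKM. Ctgf was 491 to 955 times higher than Cyr61 within aliquots, and with the longest transcripts the levels were 223 and 0.484 FPKM. Exons of Gm15270, listed at 0 in each aliquot, cover 23.2% of the exonic bases of Ctgf. Cyr61, with 1 annotated transcript, shares 0%.

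In order of mean deposited level the 10 genes ran Ctgf, Lats2, Tead1, Yap1, Wwtr1, Lats1, Cyr61, Tead3 and the pair listed at 0. Neighbours in this order had ranges that did not overlap, except Cyr61 and Tead3, whose values cross (0.331 FPKM for Cyr61 and 0.428 FPKM for Tead3, both in aliquot 2), and Tead2 and Tead4. With 3 values each a permutation test of a single pair of genes could not fall below 0.1, and none was run.

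Aliquots were compared by a chi-square test of the recovered reads against the library totals, across all genes with at least 30 reads and with Benjamini-Hochberg adjustment. Of the 10 genes 7 had enough reads and 0 passed at 0.05, against 1.09% of the 9120 genes tested. At an unadjusted p under 0.05 there was 1 of the 7, near the 11.4% of all genes tested. It was Ctgf, which was highest in aliquot 1 and lowest in aliquot 3 (unadjusted p = 0.0037, adjusted p = 0.15, chi-square test across all genes). The adjusted values of the other 6 were 0.77 to 0.98. The coefficients of variation of Yap1 (1.07%), Tead1 (1.93%), Wwtr1 (2.22%) and Lats1 (2.53%) were below the median of 4.05% for genes of 10 to 100 FPKM. Lats2 with 1.62% was below and Ctgf with 3.20% above the median of 2.16% for 100 to 1000 FPKM. Cyr61 with 30.9% was near, and Tead3 with 76.3% above, the median of 35.1% for 0.1 to 1 FPKM.

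**Figure D3:**
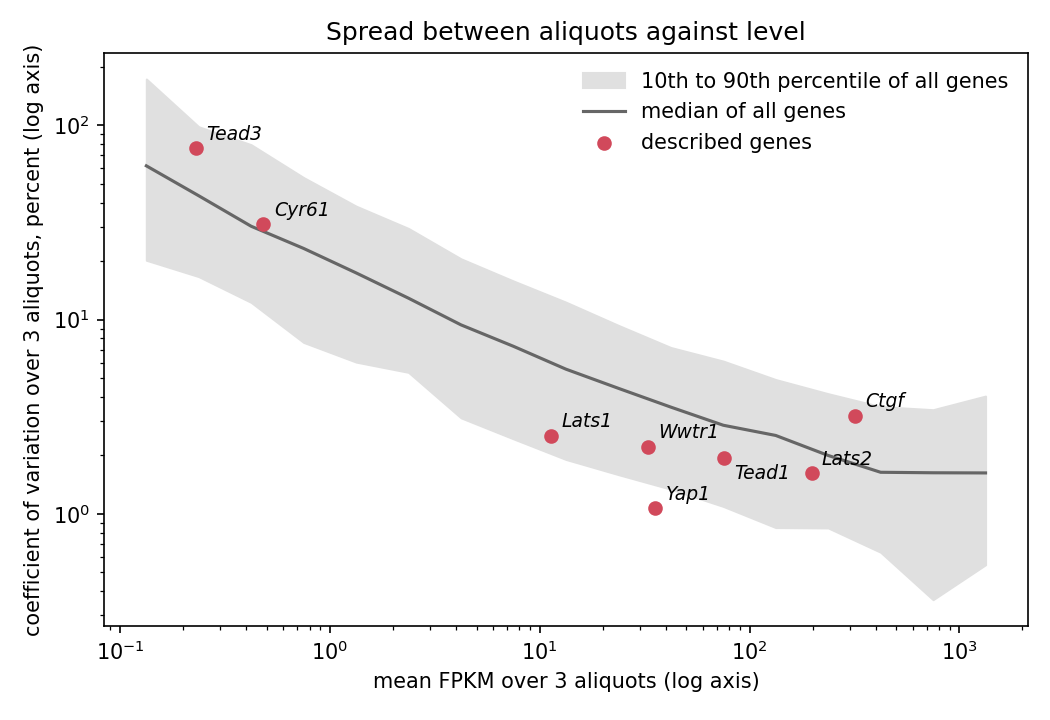
Coefficient of variation over the 3 aliquots (percent, log axis) against mean FPKM (log axis), with the 8 genes above 0 as points, the median of all genes in each level bin as a line and the 10th to 90th percentile as a band. Yap1 lay lowest with 1.07%, and the rarely read Cyr61 and Tead3 had 30.9% and 76.3%.

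The wider target programme was examined with a published list of 22 YAP and TAZ target genes that was drawn up in human tumours and includes Ctgf, Cyr61 and Lats2. Of the 22 genes 16 were detected (72.7%), the median being 8.54 FPKM, while 3 were between 0 and the limit and 3 were listed at 0. This share lay below the 76.6% of genes above 0 and above the 36.4% of protein-coding rows. The median of all genes above 0 was 10.6 FPKM and that of all rows 0. The highest were Ccdc80, a matrix-associated secreted protein gene, with 386 ± 3.05 FPKM, and the receptor tyrosine kinase gene Axl with 318, 318 and 321 FPKM, beside Ctgf and Lats2. The angiomotin gene Amotl2, both a target and an anchor of YAP, had 65.7 ± 1.79 FPKM. Ankrd1, a cardiac ankyrin repeat gene widely used as a YAP readout and named here after its value was seen, had 6.89 ± 0.442 FPKM. The tissue factor gene F3, Igfbp3 and the forkhead gene Foxf2 were listed at 0 in each aliquot. Scaled to the longest transcripts Ctgf led the list with 223 FPKM, before Ccdc80 with 148 and Axl with 127 FPKM, so the order at the top turned with gene length. The pair of classic readouts, Ctgf and Cyr61, sat on both sides of the detection limit.

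**Figure D4:**
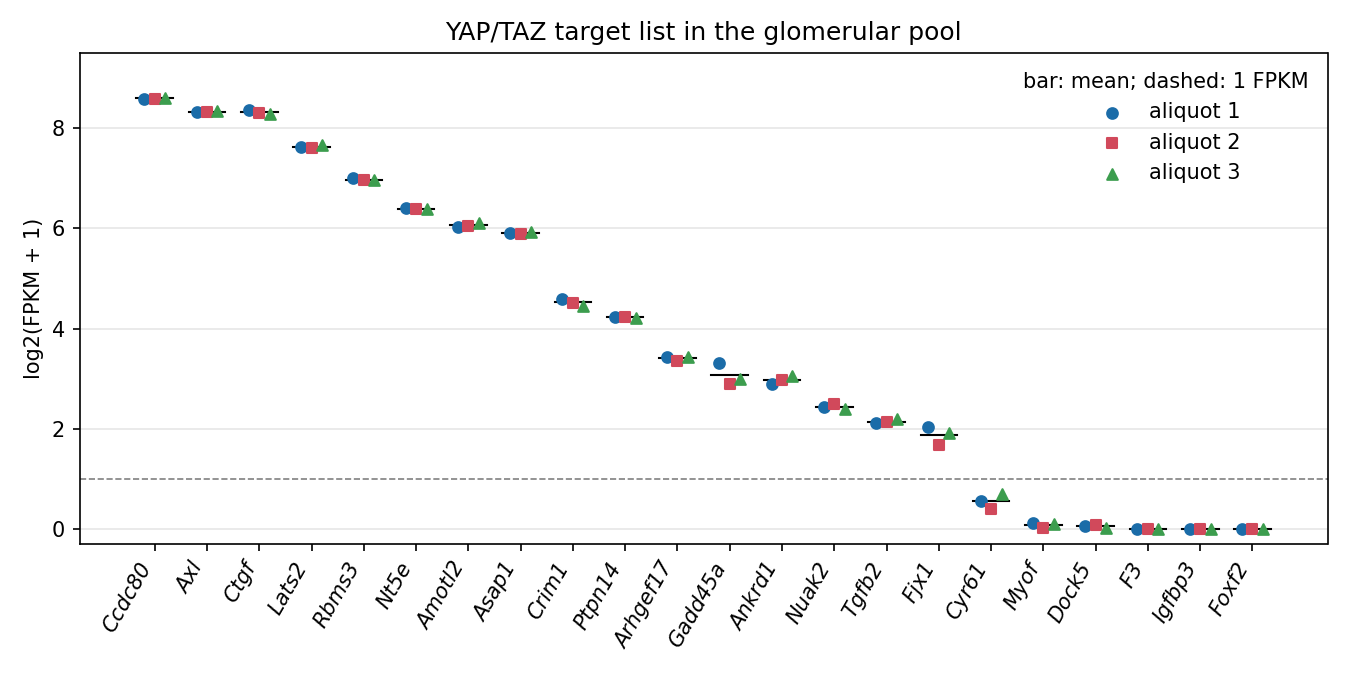
Level of the 22 target genes as log2(FPKM + 1) in aliquots 1, 2 and 3 (points), with the mean as a bar and the limit of 1 FPKM as a dashed line. The 16 genes on the left were detected in every aliquot; On the deposited scale Ccdc80 lay highest with 386 FPKM (at the longest transcripts Ctgf did, with 223 FPKM), and Cyr61 is the first below the line.

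Among the relatives of Ctgf and Cyr61 no other was detected. The CCN family list had 1 of 6 genes detected, Ctgf, and 4 listed at 0. Those at 0, named after their values were seen, were Nov, Wisp1, Wisp2 and Wisp3, which newer tables call Ccn3 to Ccn6. TEAD partners of the vestigial-like family, which compete with YAP and TAZ for TEAD or act as cofactors in their own right, had 1 of 4 detected. Vgll4, known as a repressor of TEAD activity, had 71.9, 78.1 and 75.3 FPKM, a mean of 75.1 ± 3.13 FPKM. Its range overlapped that of Tead1 on the deposited scale, but at the longest transcripts Vgll4 had 44.4 and Tead1 9.31 FPKM. Vgll1, Vgll2 and Vgll3 were listed at 0. Among all protein-coding rows 36.4% were detected and 54.6% were listed at 0.

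Upstream of YAP and TAZ the core kinase cassette was complete, with 7 of 7 genes detected and a median of 44.6 FPKM. Beside Lats2 and Lats1 it holds the MST kinases Stk3 (57.9 ± 0.358 FPKM) and Stk4 (49.1 ± 1.61 FPKM) and the LATS co-activators Mob1b (44.6 ± 0.686 FPKM) and Mob1a (38.9 ± 1.49 FPKM). Stk3 was above Stk4 by 0.23 ± 0.0552 and Mob1a below Mob1b (-0.19 ± 0.0505) in log2(FPKM + 1) within aliquots, but with the mean annotated transcript length both signs turned (-0.093 and 0.15). The lowest was the scaffold Sav1, named after its value was seen, with 4.94 ± 0.0713 FPKM. Lats2 was thus the highest of the cassette and Lats1 the second lowest on the deposited scale. Other kinases that can act on LATS or YAP were detected for 9 of 12 genes, and their median was 11.4 FPKM. Map4k3 led (58.3 ± 0.879 FPKM), before Taok1 (44.8 ± 1.38 FPKM), Map4k4 (39.5 ± 1.62 FPKM) and Stk38 (16.9 ± 1.32 FPKM). Mink1 (0.894 ± 0.290 FPKM) was below the limit, and Map4k1 and Tnik were at 0. The shares detected of all genes above 0 and of protein-coding rows were 76.6% and 36.4%.

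Membrane, junction and polarity regulators were the list with the most undetected genes by number, but not by share. Their detected share was 45.0%, above the CCN family (16.7%), the vestigial-like genes (25.0%) and all protein-coding rows (36.4%). Of 20 measured genes 9 were detected, 7 were listed at 0 and the median was 0.322 FPKM. Nf2, which encodes the tumour suppressor Merlin that activates LATS at the membrane, led with 46.5 ± 3.29 FPKM, followed by Rassf5 (17.8 ± 1.81 FPKM), Dlg1 (16.6 ± 0.753 FPKM) and Rassf1 (13.8 ± 1.12 FPKM). Scaled to the longest transcripts this lead was small, with 14.3 FPKM for Nf2, 13.7 for Rassf5, 9.28 for Rassf1 and 6.38 for Dlg1. Wwc1, which encodes the Merlin partner KIBRA, and the atypical cadherins Fat2 and Fat3 were among those at 0. Other atypical cadherins, named after their values were seen, were detected: Fat1 (13.5 ± 0.0609 FPKM), Dchs1 (6.35 ± 0.173 FPKM) and Fat4 (4.02 ± 0.122 FPKM). At the longest transcript Fat1 had 13.4 FPKM, above Rassf1 and Dlg1. The inhibitors and anchors of YAP and TAZ had 8 of 10 genes detected, with a median of 18.3 FPKM. Amotl1, an angiomotin that binds YAP in the cytoplasm, had 213, 211 and 216 FPKM, a mean of 213 ± 2.21 FPKM, above the level of Yap1 in every aliquot. Alpha-catenin (Ctnna1) had 147 ± 3.16 FPKM, above Amotl1 at the longest transcripts (146 against 94.3 FPKM), and the LIM adaptor Limd1 19.8 ± 0.464 FPKM. Amotl1 was 3.25 ± 0.0680 times as high as Amotl2, whereas Amot and the LIM adaptor Wtip had 1 read each.

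Transcripts of proteins that reverse or carry out the phosphorylation signal were mostly detected. So were 76.6% of all genes above 0 in at least 1 aliquot, and 36.4% of protein-coding rows were detected. The STRIPAK phosphatase complex, which opposes the MST kinases, had 14 of 16 genes detected and a median of 33.0 FPKM, led by Slmap (132 ± 3.68 FPKM), Strn (129 ± 2.13 FPKM), Pdcd10 (122 ± 5.43 FPKM) and Strn3 (97.2 ± 1.03 FPKM). Scaled to the longest transcripts this order turned, with Strn3 (106 FPKM) above Strn (61.8 FPKM), Slmap (55.8 FPKM) and Pdcd10 (55.5 FPKM). Strip2 and Stk26 were at 0. The 14-3-3 genes, whose proteins hold phosphorylated YAP and TAZ in the cytoplasm among many other clients, had 6 of 7 detected with a median of 239.6 FPKM, the highest median of the 12 lists. Ywhaz had 3177 ± 35.7 FPKM, Ywhae 1531 ± 7.19 FPKM, Ywhaq 258 ± 7.70 FPKM and Ywhah 239.6 ± 6.07 FPKM, and Sfn was at 0. Several 14-3-3 genes have processed pseudogene copies that can share their reads, so these levels are uncertain. Turnover genes had 5 of 6 detected and a median of 40.3 FPKM: the ubiquitin ligase parts Skp1a (449 ± 7.98 FPKM), Cul1 (121 ± 4.55 FPKM) and Fbxw11 (20.3 ± 0.789 FPKM) and the kinase Csnk1e (60.4 ± 4.19 FPKM), with Csnk1d at 0.489 ± 0.0814 FPKM. Btrc, the remaining detected gene and named after its value was seen, had 19.8 ± 0.324 FPKM. At the longest transcripts Btrc had 26.3, Fbxw11 12.8 and Csnk1e 10.7 FPKM, so their order turned with gene length.

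The last list held stretch sensing genes and the MRTF-SRF route, a parallel path from actin tension to transcription. It had 7 of 9 genes detected and a median of 79.0 FPKM. By the same limit 76.6% of genes above 0 and 36.4% of protein-coding rows were detected. The stretch-gated channel gene Piezo2 had 138, 146 and 147 FPKM, a mean of 143 ± 4.93 FPKM, while Piezo1 had 0.0981 ± 0.0683 FPKM from 10 reads. The nuclear lamina gene Lmna had 351 ± 10.8 FPKM (125 at the longest transcript, below the 207 of Rock1) and the small GTPase Rhoa 211 ± 2.67 FPKM. Rhoa's effector kinase Rock1 had 224, 212 and 210 FPKM and was the 1 gene of 86 tested in the 12 pathway lists (1.16%, against 1.09% of all genes tested) whose reads differed between aliquots (adjusted p = 0.00017, chi-square test across all genes). The co-activator Mkl2 (also Mrtfb) with 58.7 ± 1.77 FPKM was 10.9 ± 1.11 times as high as Mkl1 (also Mrtfa) with 5.45 ± 0.60 FPKM. Their DNA-binding partner Srf had 0.0316 ± 0.0113 FPKM from 4 reads (0.0494 FPKM at its longest transcript). Tead1, the partner of YAP and TAZ, was detected. The activity of either route was not tested.

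**Figure D5:**
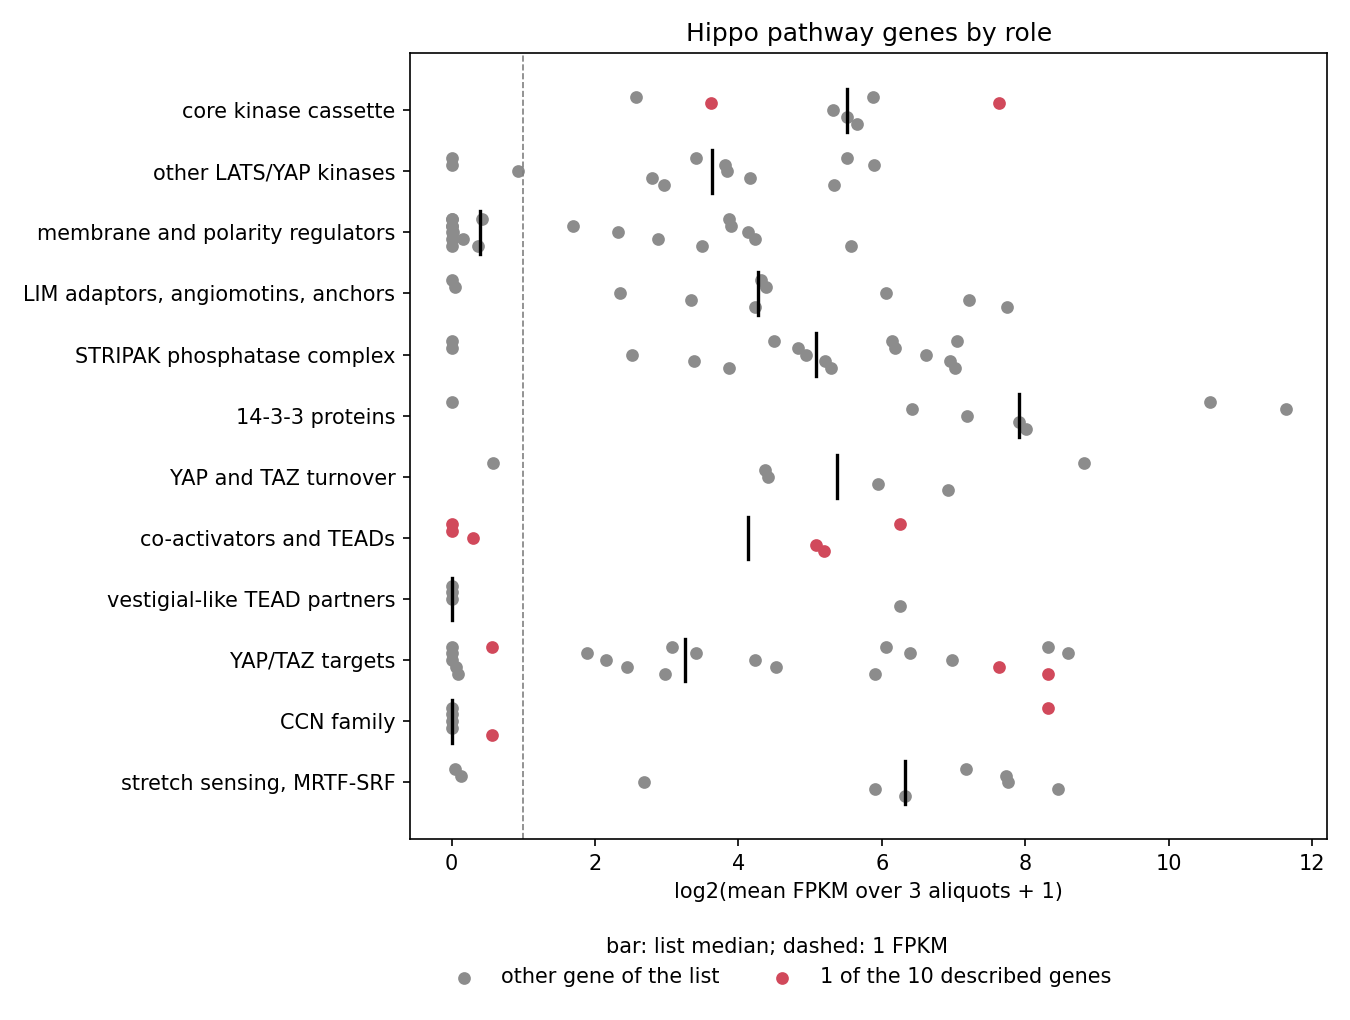
Mean level over the 3 aliquots as log2(mean FPKM + 1) for each gene of the 12 Hippo pathway lists (points), with the 10 described genes in red, each list's median as a bar and the limit of 1 FPKM as a dashed line. The core kinase cassette lies wholly to the right of the line, and single genes stand far from their relatives among the TEAD, vestigial-like and CCN genes.

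Over the 12 lists together 82 of 120 measured genes were detected (68.3%), and without the 10 described genes 76 of 110 (69.1%). This lay above the 36.4% of protein-coding rows and below the 76.6% of genes above 0. In some of these families, picked after their values were seen, 1 paralog carried nearly all of the measured level: Tead1 among the TEAD genes, Ctgf in the CCN family and Vgll4 among the vestigial-like genes. Others went the other way on the deposited scale: Yap1 and Wwtr1 (35.6 and 32.8 FPKM), Stk3 and Stk4 (57.9 and 49.1 FPKM), and Mob1a and Mob1b (38.9 and 44.6 FPKM). At the longest transcripts Yap1 had 13.8 and Wwtr1 32.2 FPKM. Further pairs were unequal: Lats2 was 17.5 times Lats1, Mkl2 10.9 times Mkl1 and Amotl1 3.25 times Amotl2. The 14-3-3 genes had 6 of 7 detected. Of all protein-coding rows 54.6% were listed at 0.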

How the data were processed

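Gene expression was measured by RNA-seq in 3 aliquots of 1 cDNA pool, and 1 table with 39304 rows and 1 column per aliquot was used. Its unit is FPKM, as deposited. The submitters' processing notes name TopHat2 2.0.12, HTSeq 0.6.1 and the build GRCm38, and nothing read here states the settings, the annotation or how gene length was defined. Columns were mapped to samples by title.

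GENCODE M21 (GRCm38) gave coordinates, symbols and the lengths of transcripts, with older names matched through RefSeq synonyms. Of the listed genes 1, Dchs2, was not analysed here. Reads were recovered from the steps of values under 0.5 FPKM, which gave the library totals. Each gene then took the shortest length in bases at which its reads in all aliquots were whole within 0.0001, or a multiple of it within 1 base of the mean transcript length (377 of 11142 genes, Yap1 among them). Such reads may be too low by a whole factor, and read models were not fitted to them. Log ratios used a pseudocount of 1 FPKM, which understates the differences of low genes. Python 3.11.15, numpy 2.4.6, pandas 2.3.3 and scipy 1.17.1 were used, and the recovery and the chi-square test were tested on simulated data.

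The 10 genes and the 12 pathway and 6 marker lists were chosen with earlier results of these data known. The text names the 10 genes, at most 4 detected genes of each list from the top, at most 3 undetected ones from the bottom, and both genes of each pair. Others are said to be named after their values were seen. Genes alike in pattern were not sought, since aliquots of 1 pool hold no biological variation. Alternatives were other detection limits, pseudocounts, lengths, scaling, read minimums and leaving out each aliquot.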

Additional observations from a re-analysis of the deposited data

How the results depend on the processing

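Detection counts of the 10 genes and of the 12 lists stayed within 1.5 times of the values given under limits of 0.5 and 5 FPKM, a mean of 1 FPKM, the longest transcript lengths and leaving out each aliquot. The 10 genes gave 6 detected under each. Gene length moved levels most. With the longest transcript the means were 13.8 FPKM for Yap1, 9.31 for Tead1, 8.91 for Lats1, 76.5 for Lats2 and 223 for Ctgf. The mean annotated length, chosen after seeing the data, gave 37.2 FPKM for Tead1, 12.4 for Lats1 and 213 for Lats2. Other whole factors, also chosen after seeing the data, gave at the longest transcript 18.6 FPKM for Tead1 and 6.91 for Yap1.

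The log2 ratio of Wwtr1 to Yap1 was -0.11 and turned to 1.16 with the longest transcripts. That of Lats1 to Lats2 was -4.01 and became -2.97 so, and -4.12 with a pseudocount of 0.1 FPKM. Cyr61 to Ctgf was -7.76 and became -7.24 and -9.13. Tead1 to Tead3 was 5.96 and became 3.17 and 7.96, and 4.92 with the mean length. With the mean length Stk3 to Stk4 turned to -0.093 and Mob1a to Mob1b to 0.15. No ratio was computed for 2 of the 10 fixed pairs, those with Tead2 and Tead4 listed at 0. Keeping only pairs with both genes at 1 FPKM or more left 6 of the 8 ratios as they were and gave none for Cyr61 to Ctgf and Tead1 to Tead3.

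The chi-square test called 99 genes, 41 with the statistic scaled by its median and 2 to 98 when an aliquot was left out, 2 being the count without aliquot 1. It called 0 of the 10 genes in each. Leaving out an aliquot gave means of 35.5 to 35.8 FPKM for Yap1, 32.4 to 33.1 for Wwtr1, 74.7 to 76.0 for Tead1, 11.1 to 11.4 for Lats1, 196 to 199 for Lats2, 313 to 323 for Ctgf, 0.408 to 0.557 for Cyr61 and 0.130 to 0.295 for Tead3, lowest without aliquot 2. No paired analysis was possible because the series has 1 group. Depth limits Cyr61 and Tead3, which rest on 30 and 16 reads.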

Other observations

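Cyr61 is also an immediate early gene, one of those that cells switch on within minutes of a stimulus, and 15 further genes of this kind were looked up after its value was seen. Of these 9 were detected, 3 were between 0 and 1 FPKM and 3 were listed at 0, with a median of 2.28 FPKM. Of all protein-coding rows 36.4% were detected and 54.6% listed at 0, and of the genes above 0 in at least 1 aliquot 76.6% were detected. Dusp1, a phosphatase that damps MAP kinase signals, had 148 ± 5.04 FPKM, and the zinc finger genes Klf6 and Klf2 had 63.3 ± 0.881 and 32.8 ± 1.30 FPKM. Jun had 11.9, 13.2 and 14.4 FPKM and Egr1 2.27, 2.45 and 2.11 FPKM in aliquots 1, 2 and 3. Fos, Junb and Atf3 were listed at 0 in each aliquot. The immediate early genes thus held both well detected members and members at 0, and why Cyr61 was low was not tested.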
